A study of Rattus norvegicus with 12 samples.

Results

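Sds, Tat, Hpd, Tdo2, Agxt, Hal, Hgd, Fah and Got1 encode enzymes with which hepatocytes break down amino acids. Each of the 9 genes had 1 probe set annotated to it alone, so 9 of 31042 probe sets and 9 of 14217 named genes are described here, across 4 groups of rat tissue. The probe sets were 1369864_a_at (Sds), 1369790_at (Tat), 1368188_at (Hpd), 1368720_at (Tdo2), 1387215_at (Agxt), 1387307_at (Hal), 1398514_at (Hgd), 1368092_at (Fah) and 1368272_at (Got1). The rule names the genes and uses no measured value. Intensity was measured on 12 single-colour arrays, 3 per group, from male adult Sprague-Dawley rats.

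The control group was liver of rats given distilled water by intraperitoneal injection. Rats of the other 3 groups received diethylnitrosamine (DEN), a carcinogen that hepatocytes activate to an alkylating agent. The labelled course was 70 mg/kg once a week for 10 weeks. They were killed at week 5 (hepatitis stage), weeks 13 to 14 (cirrhosis stage) and weeks 23 to 24 (hepatocellular carcinoma, HCC). The labels count these weeks from DEN treatment without naming its first or last dose, and give no time for the controls. Counted from the first dose, week 5 would fall within the 10 weeks of injection, before the full course was given. Stage, number of doses and time since the last dose cannot be told apart here. All groups share the strain, sex and basal diet. The tissue label reads liver for every array, while the design text calls the last group tumour tissue. Whether the arrays of a group come from separate animals is not stated, so the spread within a group may be partly technical.

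The liver is the main site where surplus amino acids lose their nitrogen, and their carbon is then turned into glucose, ketone bodies or energy. Tyrosine passes in order through tyrosine aminotransferase (Tat), 4-hydroxyphenylpyruvate dioxygenase (Hpd), homogentisate dioxygenase (Hgd) and fumarylacetoacetate hydrolase (Fah). Tryptophan is opened by tryptophan dioxygenase (Tdo2), histidine is deaminated by histidine ammonia-lyase (Hal), and serine is turned into pyruvate by serine dehydratase (Sds). Alanine-glyoxylate aminotransferase (Agxt) removes glyoxylate, and cytosolic aspartate aminotransferase (Got1) moves amino groups between glutamate and aspartate. Sds, Tat and Tdo2 are textbook targets of glucocorticoids, and glucagon and fasting raise Sds and Tat.

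The tissue label was checked against hepatocyte markers. Summed intensity of 9 measured markers, albumin among them, was 69430 to 70190 on the control arrays, 71120 to 76820 in hepatitis, 67840 to 68890 in cirrhosis and 44380 to 67760 in HCC. None of their values lay under 16. The HCC arrays varied more than the others: the median SD per gene (log2) was 0.21 in HCC and 0.07 to 0.10 in the other groups. RNA integrity was read from Gapdh, whose 3' minus 5' signal (log2) ran from 0.38 to 1.02 outside HCC and was 1.35, 2.43 and 3.14 on HCC replicates 1, 2 and 3.

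Upstream sequences of Agxt, Tdo2 and Tat, the 3 enzymes with the largest mean log2 difference between HCC and control, are shown so that the genes can be placed. They are the 250 bases before the annotated start of transcription in RefSeq's GRCr8 assembly, 5′ to 3′ on the gene's strand. Of the 9 genes 7 were in the promoter table, where Agxt has 2 starts, and Sds and Hal were not. Capitals mark matches, on either strand, to TGTTCT (a glucocorticoid receptor half-site), TTNNGNAA (a C/EBP-type site), TGACG (a half-site of the cyclic AMP response element) or CCAAT.
Agxt, first start, chr9:101122543-101122792, plus strand: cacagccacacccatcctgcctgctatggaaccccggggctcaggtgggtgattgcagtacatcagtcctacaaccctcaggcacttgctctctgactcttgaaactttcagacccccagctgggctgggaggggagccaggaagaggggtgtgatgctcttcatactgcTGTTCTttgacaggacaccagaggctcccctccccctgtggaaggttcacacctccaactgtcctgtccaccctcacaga
Agxt, other start, chr9:101127008-101127257, plus strand: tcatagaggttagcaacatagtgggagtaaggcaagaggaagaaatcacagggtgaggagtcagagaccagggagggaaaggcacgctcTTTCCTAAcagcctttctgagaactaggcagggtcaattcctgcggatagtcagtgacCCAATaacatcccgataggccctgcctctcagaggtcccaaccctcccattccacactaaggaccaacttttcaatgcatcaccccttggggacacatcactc
Tdo2, chr2:169585587-169585836, minus strand: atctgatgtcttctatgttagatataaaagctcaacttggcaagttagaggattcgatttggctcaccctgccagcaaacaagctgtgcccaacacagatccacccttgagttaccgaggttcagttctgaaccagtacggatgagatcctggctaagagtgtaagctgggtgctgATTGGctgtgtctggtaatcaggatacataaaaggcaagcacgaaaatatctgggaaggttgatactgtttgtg
Tat, chr19:54856354-54856603, plus strand: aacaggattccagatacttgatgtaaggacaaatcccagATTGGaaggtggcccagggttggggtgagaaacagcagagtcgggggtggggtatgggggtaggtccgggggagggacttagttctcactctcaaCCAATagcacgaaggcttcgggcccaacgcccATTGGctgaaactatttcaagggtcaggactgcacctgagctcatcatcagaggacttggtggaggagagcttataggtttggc

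The CCAAT box, or its reverse ATTGG, stood in the windows of 5 of the 7 enzymes (Agxt, Got1, Hgd, Tat and Tdo2) and in 34.0% of all 33469 windows in the table. TGTTCT was found in 1 of the 7, Agxt, and in 17.5% of all windows. TTNNGNAA was found in Agxt, Hgd and Hpd and in 37.2% of all windows. TGACG was found in 0 of the 7 and in 18.2% of all windows. Agxt was counted as 1 gene over the windows of both its starts, so counts by gene and shares of windows are not fully alike. Its CCAAT and TTNNGNAA matches lay only in the window of the other start, and TGTTCT only in that of the first. These matches describe the letters of a short window and were not tested for use by any factor.

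The enzymes followed 1 common pattern in HCC and several before it. All 9 had a lower mean in HCC than in control, hepatitis or cirrhosis. Before HCC, the Sds mean was 1249% of control in hepatitis and 552% in cirrhosis, and the Got1 mean was 223% in hepatitis. The means of the other 7 lay between 99.7% (Tat) and 143% (Hal) of control in hepatitis, and from 56.7% (Agxt) to 115% (Hgd) in cirrhosis. In limma's moderated test on log2(intensity + 16), 7 of the 9 fell in HCC against control, 1 rose in hepatitis, and 0 changed in cirrhosis. In cirrhosis 2 (Sds and Agxt) reached an unadjusted p under 0.05, for which the share of all genes was not taken. At the threshold of the calls, a Benjamini-Hochberg adjusted p under 0.05, 18.7% of all genes fell and 20.0% rose in HCC. In hepatitis 1.87% rose and 2.12% fell, and in cirrhosis 1.54% rose and 1.79% fell. In bulk tissue fewer hepatocytes and less RNA per hepatocyte cannot be told apart.

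**Figure D1:**
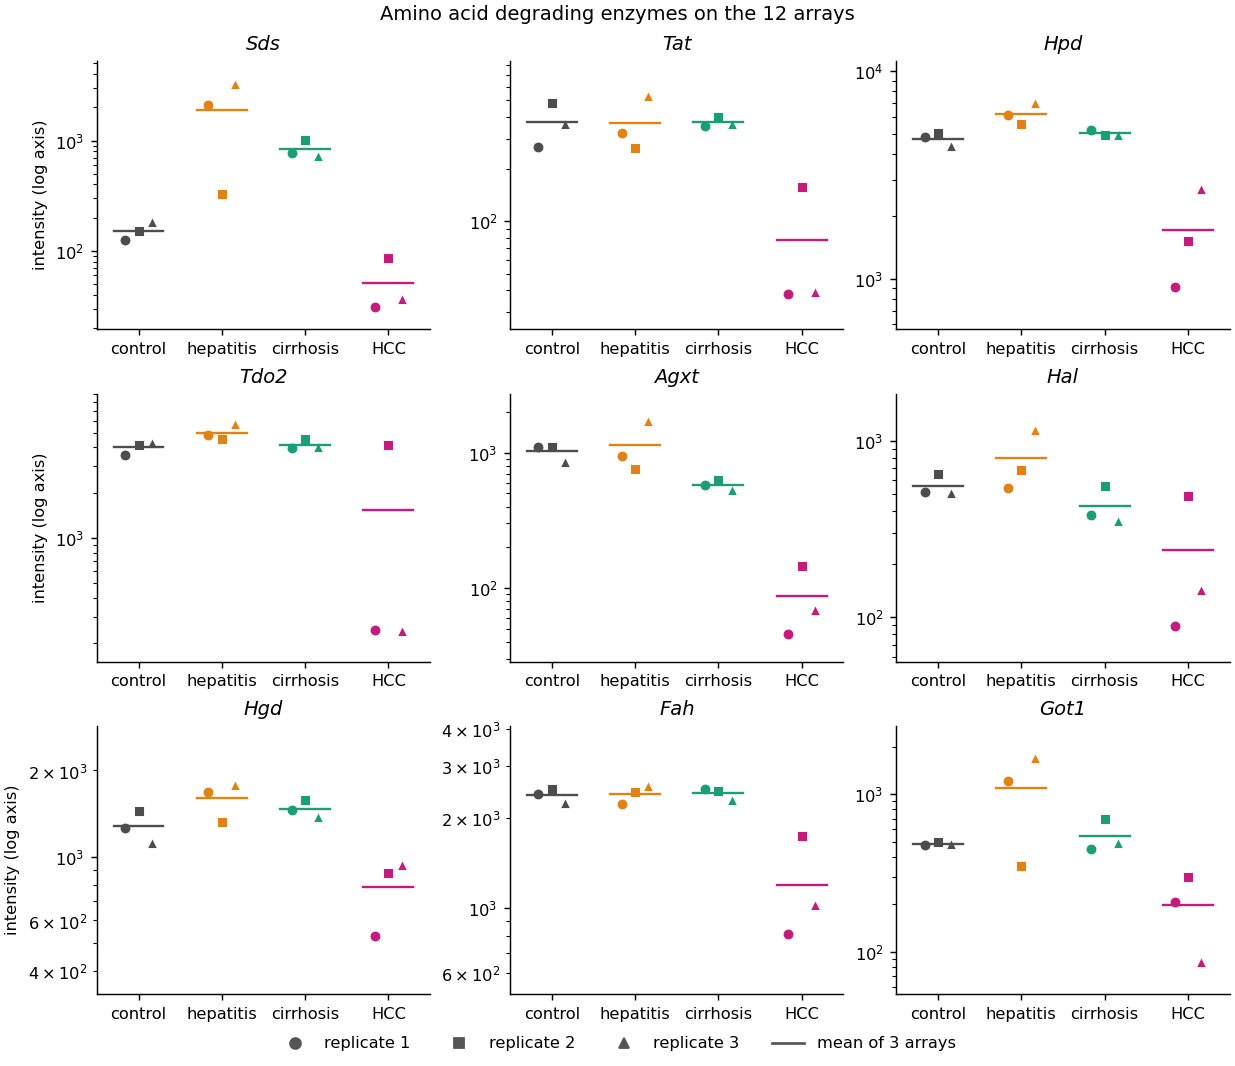
Intensity (log axis) of the 9 enzymes on each of the 12 arrays, by group, with the mean of 3 arrays as a line and the replicate number as the marker. Sds lies at 125.3 to 181.1 in control and 31.17 to 85.84 in HCC, and Tdo2 on HCC replicate 2 (4138) lies with the controls while the other HCC arrays lie at 247.2 and 242.2.

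Sds, which turns serine into pyruvate and ammonia, varied most among the stages before HCC. Its intensity was 125.3, 150.1 and 181.1 on control replicates 1, 2 and 3, and 2097, 326.7 and 3280 on the hepatitis arrays in the same order. It was 778.0, 1014 and 726.3 in cirrhosis and 31.17, 85.84 and 36.62 in HCC. All hepatitis and all cirrhosis arrays lay above all controls, and all HCC arrays lay below them. Cirrhosis lay wholly above control in 18.1% of all genes. Within hepatitis the highest array was 10.04 times the lowest, replicate 2 being far under the other 2.

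Sds rose in hepatitis by 3.00 ± 0.69 (log2 ± SE over 3 arrays a group; limma adjusted p = 0.0422). The difference in cirrhosis was 2.35 ± 0.69 (adjusted p = 0.112), and that in HCC against control was -1.40 ± 0.69 (limma adjusted p = 0.139), neither past the threshold. Against cirrhosis Sds fell by 3.74 ± 0.69 in HCC (adjusted p = 0.00226), and against hepatitis it fell by 4.40 ± 0.69 (limma adjusted p = 0.00102). In the order hepatitis, cirrhosis, control, HCC no neighbours differed past the threshold. The hepatitis call ended when any control array, any cirrhosis array or hepatitis replicate 1 or 3 was left out, with adjusted p from 0.0701 to 0.169, and without hepatitis replicate 2 the rise was 3.99 (adjusted p = 0.000649). Without that same array the cirrhosis difference (limma adjusted p = 0.00917) and the difference of HCC from control (0.00697) passed the threshold. Both also passed when only the compared groups were fitted (limma adjusted p = 0.000722 and 0.0328). In cirrhosis against control that fit called 2682 of 14217 genes, against 474 in the main fit.

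Agxt, whose loss in humans causes primary hyperoxaluria, had the largest fall in HCC against control among the 9. It measured 1105, 1100 and 856.1 in control, 951.4, 759.6 and 1706 in hepatitis, 581.2, 626.5 and 527.7 in cirrhosis and 45.89, 146.4 and 68.85 in HCC. Every HCC array lay below every other array, and every cirrhosis array lay below every control and hepatitis array. Cirrhosis lay wholly below control in 19.3% of all genes. The HCC mean was 8.53% of the control mean and the cirrhosis mean 56.7%.

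Agxt fell by 3.44 ± 0.36 in HCC against control (log2 ± SE over 3 arrays a group; limma adjusted p = 0.000128), it fell by 2.64 ± 0.36 against cirrhosis (adjusted p = 0.000422), and it fell by 3.52 ± 0.36 against hepatitis (adjusted p = 0.000108). Each of these falls stayed past the threshold under all 23 alternatives tried, and the fall against control ranged from -3.83 to -3.13 when arrays were left out in turn. The cirrhosis difference from control was -0.80 ± 0.36 (limma adjusted p = 0.304). It passed the threshold when arrays were weighted (adjusted p = 0.0144) or when only control and cirrhosis were fitted (limma adjusted p = 0.00657). In cirrhosis against control these settings called 3080 and 2682 of 14217 genes, against 474 in the main fit.

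Tat, Hpd, Hgd and Fah, the 4 enzymes of the tyrosine route, all fell in HCC, and none of them passed limma's threshold in hepatitis or cirrhosis (0 at an unadjusted p under 0.05). Tat, the first and rate-limiting enzyme, measured 268.8, 483.3 and 366.3 in control, 322.4, 266.4 and 525.8 in hepatitis and 355.6, 399.6 and 364.0 in cirrhosis. On the HCC arrays it measured 38.18, 157.9 and 39.23, all below every other array, while the other groups overlapped. Tat fell by 2.24 ± 0.43 in HCC against control (log2 ± pooled SE, 3 arrays a group, limma adjusted p = 0.00281). Its differences from control were -0.02 in hepatitis and 0.04 in cirrhosis (limma adjusted p = 0.992 and 0.990).

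Hpd, which makes homogentisate, measured 4830, 5013 and 4361 in control, 6127, 5590 and 6995 in hepatitis, 5193, 4900 and 4949 in cirrhosis and 910.8, 1521 and 2701 in HCC. All hepatitis arrays lay above all controls, and all HCC arrays below every other array. Hpd fell by 1.59 ± 0.30 in HCC against control (log2, SE; limma adjusted p = 0.00248), while its hepatitis difference was 0.39 ± 0.30 (adjusted p = 0.593). It is 1 of 3 enzymes, with Sds and Tdo2, whose hepatitis and control arrays did not overlap, all with hepatitis higher. Of all genes 15.1% had hepatitis arrays wholly above control.

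Hgd, which opens the homogentisate ring, had the smallest HCC difference of the 9. It measured 1264, 1448 and 1118 in control, 1689, 1319 and 1787 in hepatitis, 1458, 1584 and 1376 in cirrhosis and 531.5, 878.7 and 937.6 in HCC. All HCC arrays lay below every other array, and the other groups overlapped. Hgd fell by 0.73 ± 0.20 in HCC against control (log2, SE; limma adjusted p = 0.0175) and it fell by 0.94 ± 0.20 against cirrhosis (limma adjusted p = 0.00526). After quantile normalization these differences were -0.41 (adjusted p = 0.239) and -0.62 (adjusted p = 0.0826). The call against control also ended without control replicate 2 (-0.64, adjusted p = 0.0666), and without HCC replicate 1 the difference was -0.48 (adjusted p = 0.0275).

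Fah, the last enzyme of the route, was the steadiest of the 9 before HCC. It measured 2410, 2518 and 2259 in control, 2246, 2462 and 2566 in hepatitis and 2524, 2479 and 2312 in cirrhosis, so that these 9 arrays overlapped in a narrow band. On the HCC arrays it measured 815.8, 1743 and 1022, all below that band. Fah fell by 1.07 ± 0.22 in HCC against control (log2, SE; limma adjusted p = 0.00367) and its differences in hepatitis and cirrhosis were 0.02 and 0.03 (limma adjusted p = 0.988 and 0.986).

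Tdo2, the first enzyme of tryptophan breakdown, was split among the HCC arrays. It measured 3577, 4143 and 4252 in control, 4815, 4529 and 5680 in hepatitis and 3961, 4506 and 4023 in cirrhosis. In HCC it measured 247.2, 4138 and 242.2, so that HCC replicate 2 lay at 103.7% of the control mean and replicates 1 and 3 at 6.20% and 6.07%. Within HCC the highest array was 17.09 times the lowest, the widest spread of any of the 9 enzymes in any group.

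Tdo2 fell by 2.61 ± 0.86 in HCC against control (log2 ± pooled SE, 3 arrays a group, limma adjusted p = 0.0359), although the groups overlap. The call ended when any control or cirrhosis array or HCC replicate 1 or 3 was left out (adjusted p from 0.052 to 0.12) or when only the compared groups were fitted (0.152), and without HCC replicate 2 the fall was larger, at -3.94 (limma adjusted p = 8.19e-08). Against cirrhosis Tdo2 fell by 2.67 ± 0.86 (adjusted p = 0.0335), a call that ended without any cirrhosis array (0.0776 to 0.086), without HCC replicate 1 or 3 (0.104 and 0.115) or with only the compared groups (0.139). Against hepatitis it fell by 2.93 ± 0.86 (limma adjusted p = 0.0239), a call that ended without any hepatitis array (0.0557 to 0.0654), without HCC replicate 1 or 3 (0.0734 and 0.0838) or with only the compared groups (0.137). Hepatitis differed from control by 0.32 ± 0.86 (adjusted p = 0.924), a value whose SE carries the spread of the HCC arrays.

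Hal, which forms urocanate from histidine, measured 515.7, 651.2 and 503.7 in control, 541.5, 682.8 and 1158 in hepatitis, 380.9, 554.7 and 352.1 in cirrhosis and 89.76, 485.6 and 143.5 in HCC. All HCC arrays lay below all control and hepatitis arrays, and replicate 2 lay within the range of cirrhosis. That array stood at 87.2% of the control mean, against 16.1% and 25.8% on replicates 1 and 3. Hal fell by 1.48 ± 0.50 in HCC against control (log2, SE; limma adjusted p = 0.0393) and it fell by 1.92 ± 0.50 against hepatitis (adjusted p = 0.0139), while HCC against cirrhosis was -1.10 ± 0.50 (limma adjusted p = 0.113). The call against control ended without any control array, any cirrhosis array, hepatitis replicate 2 or HCC replicate 1 or 3 (adjusted p from 0.0511 to 0.12), after quantile normalization (0.0621), and with all probe sets fitted or 64 added before log2 (both 0.0506). The call against hepatitis ended without hepatitis replicate 3 (0.0534). With only the compared groups fitted, the calls against control and against hepatitis both ended (limma adjusted p = 0.121 and 0.0956). The difference of HCC from cirrhosis passed the threshold without HCC replicate 2, at -1.75 (adjusted p = 0.00199).

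Got1, the cytosolic aspartate aminotransferase of the malate-aspartate shuttle, shared with Sds a low hepatitis replicate 2. It measured 472.7, 499.9 and 485.6 in control and 1216, 351.4 and 1689 in hepatitis, so that 2 hepatitis arrays were above and 1 below all controls. It measured 451.5, 698.0 and 487.5 in cirrhosis and 206.5, 298.3 and 86.35 in HCC, where all arrays lay below every other array. Got1 fell against hepatitis by 2.25 ± 0.54 (log2 ± pooled SE, 3 arrays a group, limma adjusted p = 0.00978). That call ended with weighted arrays (limma adjusted p = 0.058) or with only the compared groups fitted (0.0848).

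Against control the Got1 difference in HCC was -1.38 ± 0.54 (limma adjusted p = 0.0699) and in hepatitis 0.87 ± 0.54 (adjusted p = 0.485). The HCC difference passed the threshold after dropping the dimmest 30% of genes (0.0437), without hepatitis replicate 2 (adjusted p = 0.0166) or without HCC replicate 2 (-1.73, adjusted p = 0.036). Against cirrhosis the difference was -1.52 ± 0.54 (limma adjusted p = 0.0518), and it passed without hepatitis replicate 2 (0.0113), hepatitis replicate 3 (0.0384) or HCC replicate 2 (0.0269), and under 4 other settings (0.031 to 0.0438).

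**Figure D2:**
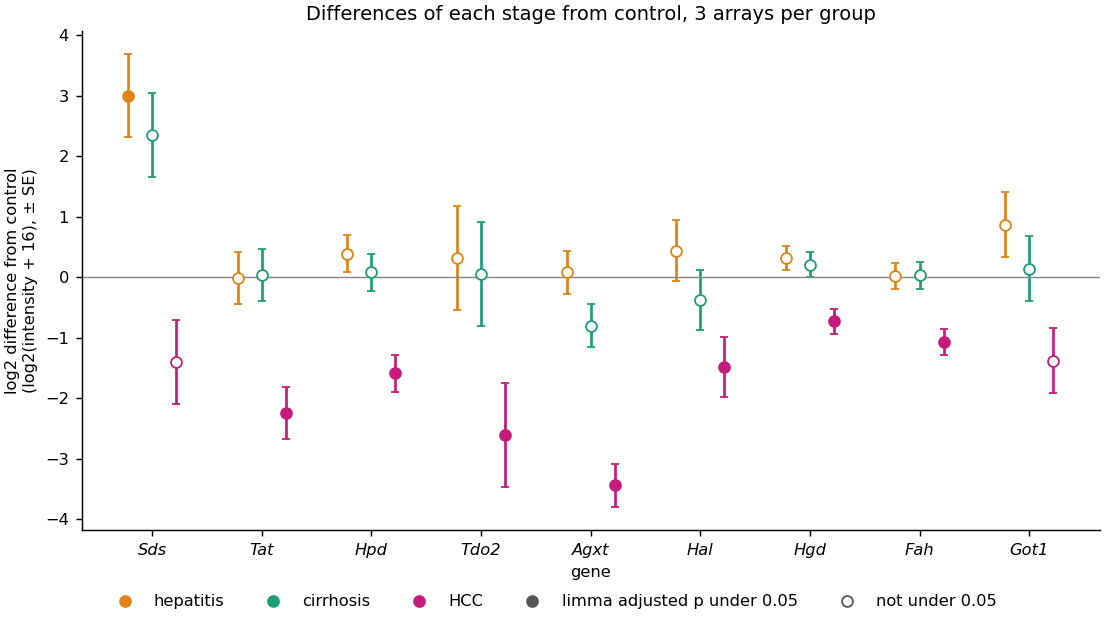
Log2 difference of each stage from control for the 9 enzymes, with its standard error; filled points passed limma's adjusted p under 0.05. Sds in hepatitis (3.00) is the only filled point above 0, and in HCC 7 filled points lie between -3.44 (Agxt) and -0.73 (Hgd).

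Counted over the 9 enzymes, the median log2 difference from control was 0.32 in hepatitis, 0.06 in cirrhosis and -1.48 in HCC, against medians of all genes from 0.00 to 0.01 in size. In HCC the differences of the 9 from control ran from -3.44 (Agxt) to -0.73 (Hgd). Their HCC and control arrays did not overlap in 8 of the 9, all but Tdo2, against 22.5% of all genes with HCC wholly below control. The 7 that fell were Tat, Hpd, Tdo2, Agxt, Hal, Hgd and Fah. The count was 8 without HCC replicate 2 and 4 without control replicate 2, when Tat, Hpd, Agxt and Fah remained. It was 5 when only the control and HCC arrays were fitted, where Tdo2 (limma adjusted p = 0.152), Hal (0.121) and Hgd (0.08) were lost and Sds was gained, and 5 after quantile normalization, where Hal and Hgd were lost.

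Between stages, 0 of the 9 changed in cirrhosis against hepatitis in limma's test, where 0.957% of all genes changed. Hpd, Tdo2 and Agxt had cirrhosis arrays wholly below hepatitis (13.7% of all genes did), and 1 of the 9, Agxt with a difference of -0.88, reached an unadjusted p under 0.05. In HCC against cirrhosis 7 of 9 fell, all but Hal and Got1, against 17.7% of all genes, and the arrays did not overlap in 7, all but Tdo2 and Hal, against 22.9%. In HCC against hepatitis all 9 fell, with differences from -4.40 (Sds) to -1.04 (Hgd), against 17.1% of all genes, and in 9 of 9 the arrays did not overlap, against 19.8%. That count was 5 when only the hepatitis and HCC arrays were fitted (Sds, Tat, Hpd, Agxt and Hgd). The comparisons with HCC share its arrays, and those with control share the control arrays, so they are not independent of each other.

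A moderated F test over the 3 stages called 8 of the 9, all but Tdo2 (adjusted p = 0.052), where 40.4% of all genes were called. Tdo2 was called without HCC replicate 2 (adjusted p = 1.86e-07). Hal (0.0464) and Got1 (0.0373) were near the threshold: the F call of Hal ended without any 1 array but HCC replicate 2 (0.0544 to 0.145), and that of Got1 ended without any 1 array but hepatitis replicate 2 and HCC replicate 2 (0.0581 to 0.118).

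Within groups some arrays ranked highest or lowest for most of the enzymes. Hepatitis replicate 3 was the highest hepatitis array for 9 of 9, and replicate 2 the lowest for 7 of 9, all but Hal and Fah. Over all genes those arrays were highest and lowest in 35.1% and 33.7%. In cirrhosis replicate 2 was highest for 7 of 9 (36.2% of all genes), although the SDs there were small, with a median of 0.10 over the enzymes (log2). In HCC replicate 2 was highest for 7 of 9 (34.0% of all genes) and replicate 1 lowest for 7 of 9 (33.8%). Control replicate 2 was highest for 6 of 9 (31.7% of all genes). The lowest array was split in control (replicate 1 for 4 and replicate 3 for 5 enzymes) and in cirrhosis (replicates 1, 2 and 3 for 3, 1 and 5).

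The HCC arrays also differed in hepatocyte markers. Without albumin, which lay near the arrays' highest values, the summed intensity of 8 hepatocyte markers was 62.8%, 96.7% and 57.7% of the control mean on HCC replicates 1, 2 and 3. On replicate 2, where that sum was near control, Agxt stood at 14.35%, Hpd at 32.1%, Tat at 42.4%, Sds at 56.4%, Got1 at 61.4%, Hgd at 68.8% and Fah at 72.7% of the control mean. Hal at 87.2% and Tdo2 at 103.7% were nearest to the marker sum on that array. The 8 markers disagreed there, so their sum is a coarse measure of hepatocyte level. Ass1 (1332 against 3015 to 3354 in control), Ttr, Apob, Fgb, Cps1 and Arg1 lay below all controls. Apoa1 (9219 against 5411 to 5884) and Serpina1 lay above them. Among the 9 measured hepatocyte markers 5 fell in HCC against control in limma's test (Ttr, Apob, Fgb, Ass1 and Arg1) with a list median of -0.64, and 0 rose. The part that hepatocyte content or RNA integrity has in these falls was not tested.

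**Figure D3:**
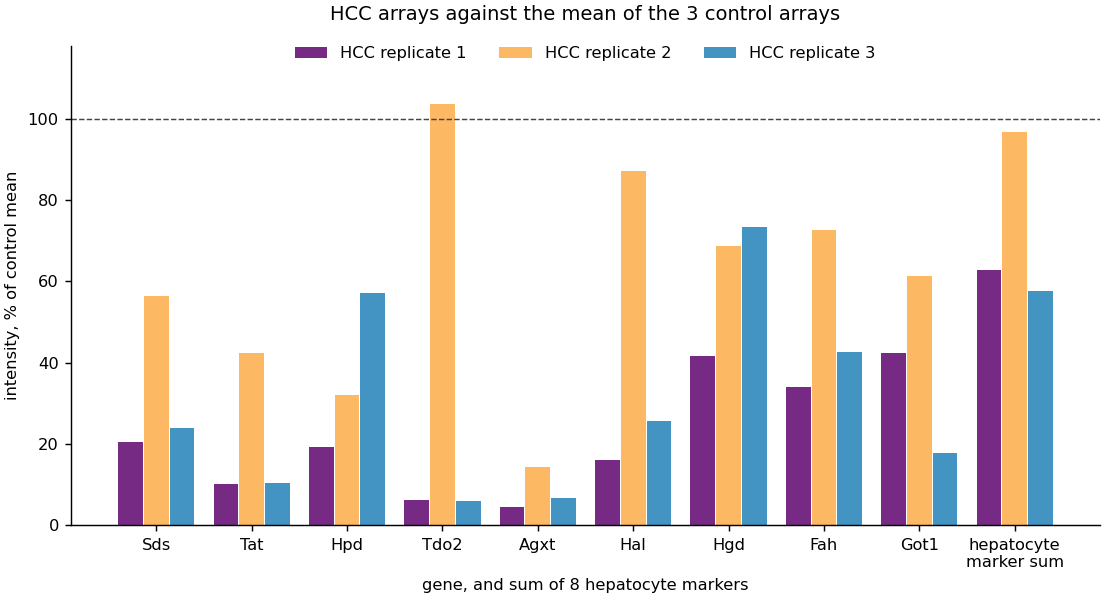
Intensity on each HCC array as a percentage of the mean of the 3 control arrays (dashed line), for the 9 enzymes and for the sum of 8 hepatocyte markers. Tdo2 on replicate 2 stands at 103.7% beside 6.20% and 6.07%, and Agxt is at or below 14.35% on all 3 arrays, while the marker sum is 57.7% to 96.7%.

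Markers of other cells also differed between HCC and control, and some of these sums already differed before HCC. Of 5 cholangiocyte markers 2 rose and 0 fell in HCC against control, and their summed intensity was 5937 on HCC replicate 1, 362.3 on replicate 2 and 1121 on replicate 3, against 246.6 to 268.6 in control. Of 5 proliferation markers 4 rose, with sums of 3177, 1131 and 2330 against 680.9 to 983.8. Of 6 macrophage markers 3 fell, with sums of 1309 to 1743 against 2719 to 5452. Of 4 endothelial markers 2 fell, Stab2 and Lyve1, with sums of 321.8 to 859.1 against 1474 to 1885. Of 7 markers of T, NK and B cells 3 rose, with sums of 496.1 to 852.3 against 169.6 to 305.4. Their sums were already 495.2 to 801.1 in hepatitis and 738.1 to 812.3 in cirrhosis, and the median difference of HCC from cirrhosis was -0.09. Of 8 stellate cell markers 3 rose and 1, Lrat, fell, with sums of 2370 to 3514 against 2111 to 2696. Pericentral hepatocyte markers, of which Oat is also counted below among the enzymes, fell in 4 of 6, with sums of 1087 to 1800 against 6874 to 7504. In hepatitis the cholangiocyte sum was 1027 on replicate 1 and 354.2 and 340.5 on the others, and in cirrhosis it was 596.8 to 694.0. Of the 5 cholangiocyte markers 0 passed the threshold in HCC against cirrhosis or against hepatitis (medians 1.47 and 1.24). Skeletal muscle markers summed to 1647 on control replicate 2 and 36.23 to 60.06 on the other 11 arrays, while Cela1, 1 of 6 acinar pancreas markers, measured 540.1 to 766.1 in control and 36.02 to 263.8 elsewhere, a fall in HCC that the other 5 did not share (Cpa1 rose by 0.61, and the list median was -0.03). The part of these cells in the enzyme values was not tested.

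The 9 enzymes were set beside 61 other genes of amino acid breakdown, taken from 8 lists by pathway. Some of the 61, such as the kinase gene Bckdk, do not encode degrading enzymes themselves. In HCC against control 50 of the 61 fell and 0 rose, with a median difference of -1.29, while 18.7% of all genes fell. In hepatitis 2 rose and 5 fell (median -0.07), and in cirrhosis 2 rose and 2 fell (median -0.08). Each of the 8 lists had members that fell in HCC.

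Around the tyrosine route, Gstz1, which isomerises maleylacetoacetate between the steps of Hgd and Fah, fell by 2.43 ± 0.20 in HCC (log2, SE; limma adjusted p = 4.59e-05). Qdpr, which regenerates the cofactor of phenylalanine hydroxylase, fell by 1.86 ± 0.25. With them 6 of 6 measured genes of tyrosine and phenylalanine breakdown fell, at a median of -1.73. Gstz1 fell further than the enzymes before and after it, from 2400 ± 141 to 449 ± 165 (intensity, SD, n = 3), though the difference between these falls was not tested.

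Along the tryptophan route 7 of 10 fell and 0 rose in HCC, at a median of -1.02. Kynureninase (Kynu), the furthest, fell by 3.57 ± 0.32 (limma adjusted p = 6.34e-05). It measured 67.91, 197.0 and 83.39 on HCC replicates 1, 2 and 3 against 1010 to 1740 in control, so that unlike Tdo2 it was low on all HCC arrays. Kyat3 fell by 1.79 and Haao by 1.53. Acmsd, which diverts the route away from nicotinamide synthesis, rose in hepatitis by 0.71 ± 0.11 (limma adjusted p = 0.00918) and by 0.64 in cirrhosis, and Kyat1 fell in cirrhosis by 0.90.

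Of 15 genes of serine, glycine and threonine breakdown 11 fell and 0 rose in HCC (median -1.40). Beside Agxt, Dmgdh fell by 2.57, the glycerate kinase Glyctk fell by 2.18 and Agxt2 fell by 2.01. In hepatitis Sds was the only 1 of the 15 that rose. Amt of the glycine cleavage system fell by 0.65 (limma adjusted p = 0.0355), and Gcat of threonine breakdown fell by 1.38 (0.0499). Sdsl, the serine dehydratase-like paralog, measured 119 ± 12.5 in control and 86.6 ± 16.1 in HCC (intensity, SD, n = 3), and was not past the threshold in any comparison with control.

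In the list of transaminases and glutamate handling 6 of 8 genes fell in HCC (median -1.15). The largest falls were those of liver glutaminase (Gls2) at -1.74, Oat at -1.34, glutamate dehydrogenase (Glud1) at -1.27 and Gadl1 at -1.02. Got2, the mitochondrial counterpart of Got1, fell by 0.51 ± 0.13 (log2, SE; limma adjusted p = 0.0113). In hepatitis Gls2 rose by 0.82, while Gpt2 fell by 0.70 and Gadl1 fell by 0.66. In cirrhosis Gpt2 fell by 0.72, the only 1 of the 8 past the threshold.

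Of the histidine route 3 of 3 measured genes fell in HCC (median -1.48), Ftcd at -2.37 and Uroc1, which acts after Hal, at -0.86. Proline and glyoxylate enzymes fell in 6 of 6 (median -1.76), with the glyoxylate-forming oxidase Hao1 at -2.64, Aldh4a1 at -1.82, Prodh at -1.80 and Prodh2 at -1.73. Of 19 genes of branched-chain amino acid breakdown 15 fell (median -1.08), led by Ppm1k at -2.17, Ivd at -2.15, Bckdhb at -1.96 and Aldh6a1 at -1.91. Lysine enzymes fell in 3 of 3 (median -1.36), namely Aass at -2.13, Aldh7a1 at -1.36 and Gcdh at -1.30. In hepatitis the branched-chain list had 1 fallen gene, the kinase gene Bckdk at -0.84, and in cirrhosis 1 risen gene, Acadsb at 1.09. Acadsb was dim, at 9.842 to 15.3 in control and 43.53 to 49.07 in cirrhosis, so this difference depends on the 16 added before log2. The histidine, proline and lysine lists had 0 past the threshold in limma at either stage. At an unadjusted p under 0.05 these lists had 0 genes in hepatitis and 1, Hoga1, in cirrhosis.

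**Figure D4:**
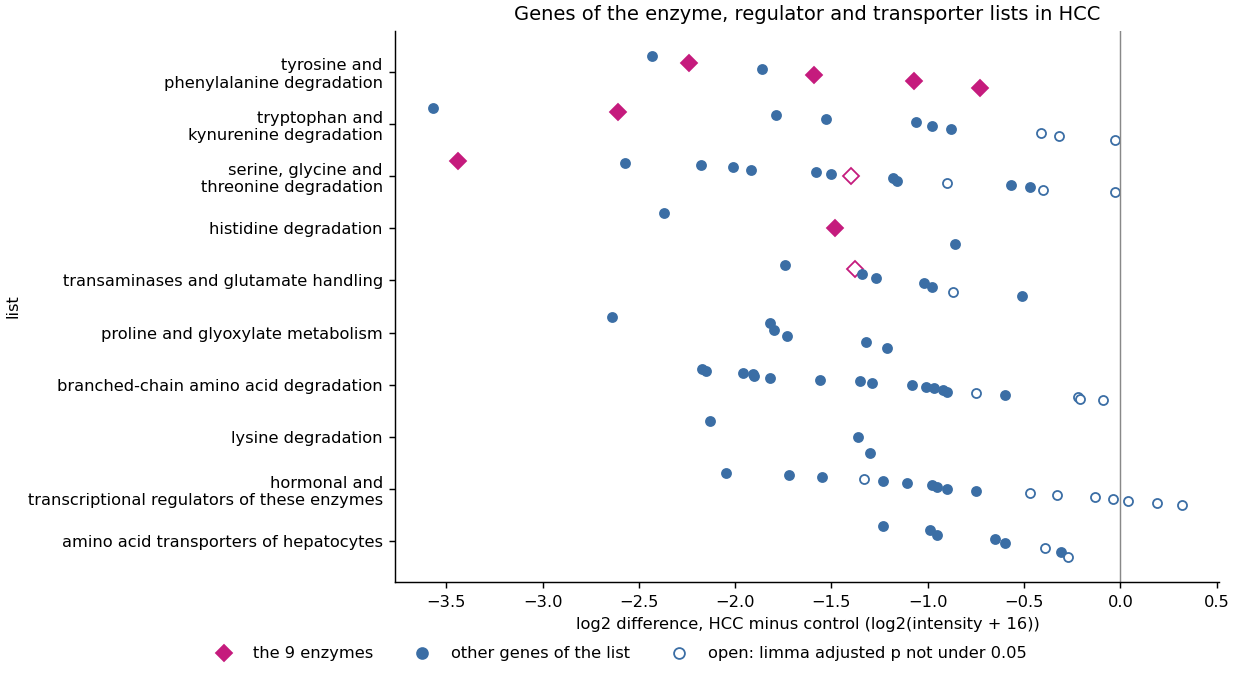
Log2 difference, HCC minus control, of each measured gene in 8 lists of amino acid breakdown, 1 of regulators and 1 of transporters. Diamonds are the 9 enzymes and open symbols did not pass limma's adjusted p under 0.05. No filled point lies above 0, and the points lowest on the scale are Kynu (-3.57) and Agxt (-3.44).

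Regulators of these enzymes were measured on the same arrays. Of 17 regulators 9 fell and 0 rose in HCC against control (median -0.90). Among the 9 that fell, the largest differences were those of Nr1i3, the xenobiotic receptor CAR, at -2.05, the glucocorticoid-induced gene Tsc22d3 at -1.72, Cebpa at -1.55 and Foxa1 at -1.23. The glucocorticoid receptor gene Nr3c1 fell by 0.75 ± 0.12 (limma adjusted p = 0.000968). Hnf4a, a central hepatocyte transcription factor, measured 1650 ± 140 in control and 1730 ± 417 in HCC (intensity, SD, n = 3; log2 difference 0.04, limma adjusted p = 0.879).

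In hepatitis 3 of the 17 regulators fell and 0 rose: Cebpa at -1.65, the glucagon receptor gene Gcgr at -0.87 and Cebpb at -0.74. In cirrhosis 2 fell, both glucocorticoid-induced genes, Fkbp5 at -1.40 and Tsc22d3 at -1.01. Fkbp5 measured 81.78, 76.23 and 70.78 in cirrhosis against 187.2, 201.8 and 306.3 in control, and 235.6, 178.7 and 207.8 in HCC. On hepatitis replicates 1, 2 and 3 it measured 173.2, 115.9 and 297.8, while Tsc22d3 measured 311.8, 349.3 and 493.3, so that their lowest arrays differed. Of 8 amino acid transporters 6 fell in HCC and 0 rose (median -0.63), led by Slc38a4 at -1.23, Slc16a10 at -0.99, Slc38a3 at -0.95 and Slc43a1 at -0.65, and 0 passed the threshold in limma in hepatitis or cirrhosis (0 and 2 at an unadjusted p under 0.05).

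Likeness between genes was taken as the root mean square distance over the 12 arrays, on log2(intensity + 16) after subtracting each gene's control mean, among 7202 other genes with a group mean of at least 100. Tat lay nearest to Pck1 (0.22), Cyp4v3 (0.28) and Elovl5 (0.29), and Fah to Serpinc1 (0.10), Wwp1 (0.10) and Hp (0.11). Tdo2 lay nearest to Uox (0.25), Serpind1 (0.29) and Hrg (0.38), and Agxt to Fbp1 (0.34), Cyp4a3 (0.38) and Cyp2a1 (0.40). Hpd had Gchfr (0.29), Slc38a4 (0.31) and Nudt7 (0.32) as its nearest genes. Hal had Abhd1 (0.26), Rarb (0.34) and Cpn1 (0.35), Hgd had Tmem204 (0.15), Pde8a (0.16) and Tob1 (0.18), and Got1 had Retreg1 (0.44), Gldc (0.49) and Gstk1 (0.50).

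By this distance, which grows with the size of a gene's changes, Sds stood apart from its fellow enzymes. Its nearest genes, Pdk4 (1.12), Cyp2c7 (1.15) and Ighl2 (1.16), were farther away than the nearest gene of any other enzyme, and Got1, its nearest fellow enzyme, lay at 1.58. The closest pair among the 9 was Hgd and Fah, at 0.32, and the most distant was Sds and Agxt, at 2.44. Among the genes nearest to each enzyme, the first of its fellow enzymes ranked from 30 (Tat, for Tdo2) to 439 (Hgd, for Fah). For Sds that rank was 48 (Got1), so by rank Sds was not the most isolated. These distances describe 12 arrays that share their groups, and no test was made on them.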

How the data were processed

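Liver RNA was measured on 12 single-colour Affymetrix arrays, 3 in each of 4 groups taken from the labels. The authors deposited linear intensities. MAS5 and RMA appear in the submitters' processing notes, with no role. The sources used here do not state which background correction and normalization made these values. Array medians were 28.7 to 30.9. Of 31099 probe sets 57 are controls, 20826 have 1 gene symbol, 436 several and 9780 none. Each of 14217 genes was represented by the probe set with the highest mean.

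Values were tested as log2(intensity + 16), which shrinks differences of dim genes, with limma 3.58.1 (lmFit, eBayes, 2-sided, R 4.3.3) on all 12 arrays, and adjusted by Benjamini-Hochberg over all 14217 genes. An adjusted p under 0.05 was called. Counts at an unadjusted p under 0.05 are given without the share of all genes at that p. The p-values measure the spread between these arrays only, and 3 arrays a group limit the precision. The script was checked on simulated data. Python 3.11.15 with numpy 2.4.6 and pandas 2.3.3 made the tables, and matplotlib 3.10.9 drew the plots.

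The 9 enzymes and the lists were chosen with earlier results of these data known. All 9 enzymes were named. From each of 10 pathway lists up to 4 genes past the threshold were named by size of difference, or else the gene with the smallest adjusted p, and for each enzyme the 3 genes nearest to it. Got2, Sdsl, Nr3c1, Hnf4a and Hoga1 were named after their values were seen. The alternatives tried were a fit of all probe sets or their mean per gene, other values added before log2, other normalizations, a filter on dim genes, array weights, a replicate block, a fit of only the compared groups, and leaving out each array.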

Additional observations from a re-analysis of the deposited data

Results flagged for a closer look

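Sds was flagged because its arrays lay on opposite sides of the control arrays at different stages. Every hepatitis and cirrhosis array lay above every control array, and every HCC array lay below. In limma HCC against hepatitis was -4.40 (log2, adjusted p = 0.00102) and HCC against cirrhosis was -3.74 (adjusted p = 0.00226). That HCC did not overlap either group follows from the order that flagged the gene. The comparisons were picked by that order, so they are no separate support for it.

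Hpd showed the same arrangement on a smaller scale, with all hepatitis arrays above and all HCC arrays below control. Its difference between HCC and hepatitis, picked by the same order, was -1.99 (log2, limma adjusted p = 0.000804). Of the displacements from control behind these, only that of Sds in hepatitis and that of Hpd in HCC passed the threshold.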

How the results depend on the processing

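Of 1440 values of the 9 enzymes under the alternatives, 1311 kept their direction and their side of the threshold. For the pathway lists, 1373 of 1440 values were counted as the same and 67 as moved, 27 of these with only the compared groups. The causes of the changes below were not tested. The 1 enzyme changed in hepatitis (Sds) became 0 with all probe sets fitted, with 64 added before log2, with a replicate block and with only the compared groups, and 0 to 1 when single arrays were left out. The 0 enzymes changed in cirrhosis became 2 (Sds and Agxt) with array weights or only the compared groups, and 0 to 1 with arrays left out. With array weights and with only the compared groups, 3080 and 2682 of 14217 genes were called in cirrhosis against control, where the main fit called 474. Leaving out arrays gave 4 to 8 in HCC against control (7), 6 to 9 in HCC against cirrhosis (7), 7 to 9 in HCC against hepatitis (9) and 6 to 9 in any stage (8). Fitting only the compared groups gave 5 in HCC against control and 5 against hepatitis, and quantile normalization gave 5 in HCC against control and 5 in any stage. Over 18 pairs the correlation of same-numbered arrays' deviations was -0.25 to 0.36, and over 0.1 in 3. Differently numbered arrays were not compared, so these values cannot decide whether the replicate numbers pair the arrays. The replicate block gave 0, 0, 7, 0, 7 and 9 enzymes in the 6 comparisons (hepatitis, cirrhosis and HCC against control, cirrhosis against hepatitis, HCC against cirrhosis and against hepatitis) and 7 in any stage. Over all genes the count in hepatitis against control was 568 (180 to 1078 with arrays left out, 521 to 2159 otherwise), in cirrhosis 474 (98 to 883, 310 to 3080), in HCC 5512 (4195 to 6338, 3210 to 5642), in cirrhosis against hepatitis 136 (39 to 333, 75 to 966), in HCC against cirrhosis 5278 (4129 to 6190, 3507 to 5415) and in HCC against hepatitis 4972 (3891 to 5866, 2390 to 5036). Some differences near 0 that passed no threshold changed sign. With array weights Agxt and Fah in hepatitis were -0.04 and -0.01, and Tat in cirrhosis was -0.03. With arrays left out, differences from control in hepatitis ranged from -0.29 to 0.18 (Tat), -0.25 to 0.33 (Agxt) and -0.03 to 0.07 (Fah). In cirrhosis they ranged from -0.17 to 0.24 (Tat), -0.01 to 0.11 (Tdo2), -0.02 to 0.06 (Fah) and -0.05 to 0.26 (Got1), and in cirrhosis against hepatitis from -0.14 to 0.33 (Tat) and -0.04 to 0.05 (Fah).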
